A study of Mus musculus with 50 samples.

Results

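The 4 targets described here are the acute-phase targets Saa1/2, Crp, Fgg and Lcn2, 4 of the 1000 gene targets on a CosMx panel applied to livers of control and HIRA KO mice. They were taken by name from the count table, and all 4 were measured and passed the filter on low counts. Saa1/2 is a single combined target for Saa1 and Saa2. CosMx reads fluorescent probes in cycles on a tissue section and assigns every decoded transcript to a segmented cell. Control mice were wildtype C57BL/6 and HIRA KO mice were HIRA fl/fl on the same background, and both groups received AAV8 Tbg-Cre, a virus that drives Cre recombinase from a hepatocyte promoter, at 6 months of age, 12 months before the median lobe was collected. HIRA is a chaperone that deposits the histone variant H3.3. The labels assign each of 50 fields of view (25 per group) to a genotype but name no mouse, so runs of consecutive fields of view were taken as 3 control and 3 HIRA KO tissue areas, and the area was the replicate. The deletion itself was not checked here. Genotype followed the side of the slide, control areas at lower and HIRA KO areas at higher x positions, so slide side and genotype cannot be told apart.

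The acute phase is the liver's change in secreted proteins after infection or injury. Cytokines of the interleukin-6 and interleukin-1 families act through the transcription factors STAT3, C/EBP and NF-kB in hepatocytes, which raise positive acute-phase proteins and lower negative ones such as transthyretin. Serum amyloid A (Saa1, Saa2) is an apolipoprotein of high-density lipoprotein and in the mouse among the most inducible of these genes. C-reactive protein (Crp), a pentraxin, responds only weakly in the mouse. Fibrinogen gamma (Fgg) is a clotting protein with high basal expression, and lipocalin 2 (Lcn2) binds bacterial siderophores and is made by neutrophils as well as by induced hepatocytes.

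In the GRCm38 annotation, Saa1 lies at chr7:46740497-46742980 on the minus strand and Saa2 at chr7:46751790-46754313 on the plus strand, 8810 bases apart and in divergent orientation. Crp lies at chr1:172698055-172833031 (plus strand), Fgg at chr3:83007724-83015049 (plus strand) and Lcn2 at chr2:32384633-32388252 (minus strand). The longest protein-coding transcripts of Saa1 and Saa2 matched at 572 of 655 aligned positions (87.3%) and their promoter windows at 287 of 301 (95.3%), so the combined target does not tell the 2 genes apart. The 250 bases before the RefSeq start site (GRCm38.p6) are shown for the 3 genes whose window of 250 bases before to 50 after the start held a searched motif, at chr7:46742981-46743230 (minus strand), chr7:46751583-46751832 (plus strand) and chr2:32387740-32387989 (minus strand), with the match in capitals:
Saa1: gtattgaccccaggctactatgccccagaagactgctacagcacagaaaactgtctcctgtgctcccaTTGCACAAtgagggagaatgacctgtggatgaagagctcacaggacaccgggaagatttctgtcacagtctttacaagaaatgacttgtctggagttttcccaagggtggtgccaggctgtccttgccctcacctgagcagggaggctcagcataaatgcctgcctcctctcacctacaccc
Saa2: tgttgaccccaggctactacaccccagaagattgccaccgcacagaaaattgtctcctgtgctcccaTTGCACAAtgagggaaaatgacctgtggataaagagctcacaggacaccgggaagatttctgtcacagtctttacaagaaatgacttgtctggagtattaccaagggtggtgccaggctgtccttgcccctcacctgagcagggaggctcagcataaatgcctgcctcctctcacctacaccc
Lcn2: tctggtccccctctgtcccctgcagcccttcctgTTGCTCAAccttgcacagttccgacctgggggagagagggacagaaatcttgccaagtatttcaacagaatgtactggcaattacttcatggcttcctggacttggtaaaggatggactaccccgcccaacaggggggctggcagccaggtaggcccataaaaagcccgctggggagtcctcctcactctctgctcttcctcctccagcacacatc
The capitals mark matches to the C/EBP motif TTGCNNAA, which lay 182 to 175 bases before the start in Saa1, 183 to 176 in Saa2 and 216 to 209 in Lcn2. The Saa1 and Saa2 matches were the same 8 letters. Both strands were searched, and 10.8% of 32817 mouse promoters of the same length held this motif. No window of the 5 genes matched the STAT motif TTCNNNGAA (8.29% of promoters) or the NF-kB consensus (8.46%), and the Crp and Fgg windows held none of the 3 motifs. A match is a description of letters, not of binding.

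Of 52132 segmented cells, 49665 were kept, and the 20842 with an area of at least 15000 square pixels are called hepatocyte-sized. Of 10 hepatocyte markers, 9 were higher in hepatocyte-sized than in smaller cells, with a median ratio of 1.78 (Apoe, 0.961, was the exception). Levels are counts per 1000000 counts of gene targets (CPM) in those cells. Decoded counts in hepatocyte-sized cells ranged from 450976 to 964396 per area, and the median cell held 131 to 258 counts. All gene targets together gave 6.23 ± 1.6 counts per 1000 square pixels in the control areas and 9.41 ± 0.792 in the HIRA KO areas (SD, n = 3), a ratio of 1.51 (p = 0.1 in an exact two-sided permutation test, which cannot go lower with 3 areas against 3), so CPM and counts per area of tissue are given side by side where they differ. Negative probes, which match no transcript, averaged 476 CPM, and the highest of the 10 stood at 633 CPM.

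The 4 targets stood above this background by different margins (levels of different targets also depend on their probes and were not ranked). Fgg was at 3609 CPM, 7.59 times the mean negative probe, and 55.5% of hepatocyte-sized cells held no Fgg count. Crp was at 1249 CPM (2.63 times the mean negative probe, 80.2% of cells at 0) and Saa1/2 at 1073 CPM (2.26 times, 84.2% at 0). Lcn2, at 858 CPM, was 1.80 times the mean and 1.36 times the highest negative probe, with 85.2% of cells at 0. The basal Lcn2 signal was therefore close to background. The highest count in any cell was 5 for Crp, 12 for Fgg, 6 for Lcn2 and 39 for Saa1/2, so a long upper tail was seen for Saa1/2.

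Across the 50 fields of view, Saa1/2 ranged from 575 to 3515 CPM in hepatocyte-sized cells around a median of 945, the highest field of view standing at 3.72 times the median. Crp ranged from 697 to 1701 around 1220 CPM (1.39 times), Fgg from 1866 to 5888 around 3409 CPM (1.73 times) and Lcn2 from 522 to 1146 around 876 CPM (1.31 times). Saa1/2 therefore had the widest range of the 4. After each area's own mean was taken into account, the variance of counts over fields of view was compared with their mean. It was 23.3 times the mean for Saa1/2, 16.1 times for Fgg, 3.01 times for Crp and 1.75 times for Lcn2. The median was 2.13 over the 659 targets above the highest negative probe and 1.94 over the negative probes. The spread beyond counting error was 49.04% of the mean for Saa1/2 (the 4th widest of these 659 targets), 21.97% for Fgg (25th), 13.6% for Crp (193rd) and 10.1% for Lcn2 (474th). The median over the 659 was 12.0%.

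Most of the Saa1/2 spread came from a few fields of view. In HIRA KO 3, field of view 47 reached 3515 CPM (95% Poisson interval 3205 to 3847), whereas the next highest was at 1179 and the area's median was 859 CPM. In HIRA KO 1, field of view 13 reached 2915 CPM (2554 to 3312), against 1109 for the next and a median of 1061 CPM. In Control 2, fields of view 24 and 23 reached 1878 (1644 to 2137) and 1719 (1486 to 1978) CPM, against a median of 1015 CPM. The other 3 areas held no such field of view: their highest were 1013 CPM in Control 1, 1244 in Control 3 and 1039 in HIRA KO 2. Both genotypes thus held fields of view with raised Saa1/2. In the same 4 fields of view Lcn2 stood at 963 (47), 918 (13), 1146 (24) and 785 CPM (23), within or at the top of the range of the other fields of view. Intervals cover counting error only.

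**Figure D1:**
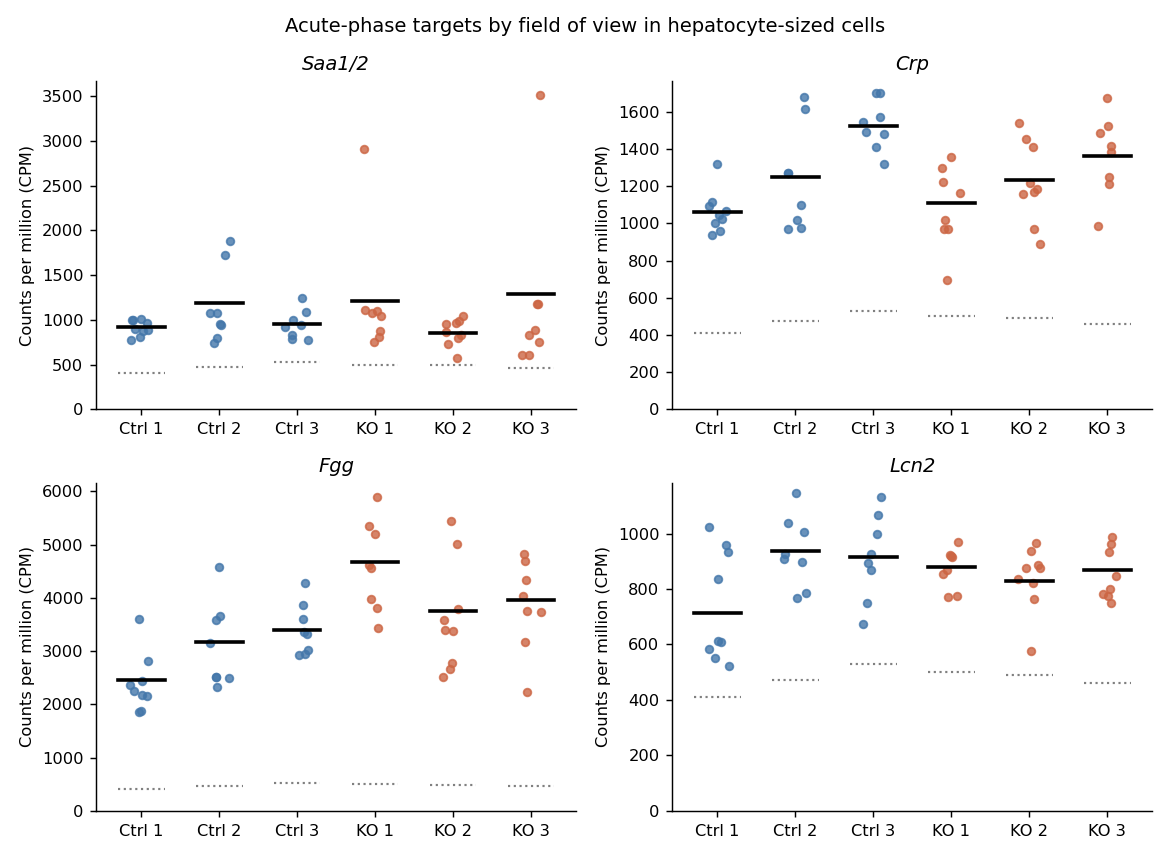
Level of each target in hepatocyte-sized cells (CPM, vertical axis) in each of the 50 fields of view, grouped by tissue area on the horizontal axis (Control 1 to 3, HIRA KO 1 to 3). Saa1/2 showed single high fields of view up to 3515 CPM, while Crp stayed between 697 and 1701 and Lcn2 between 522 and 1146 CPM.

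Fgg differed in how it varied. Its fields of view spread within every area, from 1866 to 3599 CPM in Control 1 and from 2233 to 4821 in HIRA KO 3, with no field of view far from the rest. Likeness was taken over the 50 fields of view after subtracting area means, among the 659 targets above the highest negative probe. The targets most like Fgg were Gc, the vitamin D binding protein (Pearson r = 0.78), Arg1 of the urea cycle (0.76) and Ttr, transthyretin (0.74). All of them are secretory or metabolic hepatocyte genes. Crp was most like Ttr (0.59), the antioxidant enzyme Gpx1 (0.58) and Col18a1 (0.56). Lcn2 was most like Igfbp3 (0.60), Fcrla (0.51) and Gzmb (0.49). For Saa1/2 no target exceeded Ccr10 (0.34), Ighm (0.33, 0.09 without the 2 farthest fields of view) and Mif (0.32). Among the 4 targets, r was 0.34 for Crp and Fgg and 0.03, -0.07 and 0.12 for Saa1/2 with Fgg, Crp and Lcn2. These r values describe 50 fields of view from 6 areas, which share library, depth and composition within an area.

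At the level of cells, the raised Saa1/2 lay in clusters. Hepatocyte-sized cells with more than 2 Saa1/2 counts, a count above the 99th percentile, are called Saa1/2-high. There were 179 (0.859%), spread over 38 fields of view, and 93 of them (52.0%) lay in the 4 fields of view named above: 34 in 47, 21 in 13, 20 in 24 and 18 in 23. In fields of view with at least 5 such cells, 38.4% of the 10 nearest hepatocyte-sized neighbours of a Saa1/2-high cell were themselves Saa1/2-high, against 2.28% for the other cells. The same measure for cells chosen by the other targets was 2.23% against 2.05% for Crp, 1.40% against 1.89% for Fgg and 3.33% against 1.44% for Lcn2, the last over 12 cells. Clustering of the top cells was thus marked for Saa1/2 and slight or absent for the other 3. Of the 179 Saa1/2-high cells, 8 were also among the top cells for Fgg, 7 for Lcn2 and 4 for Crp.

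**Figure D2:**
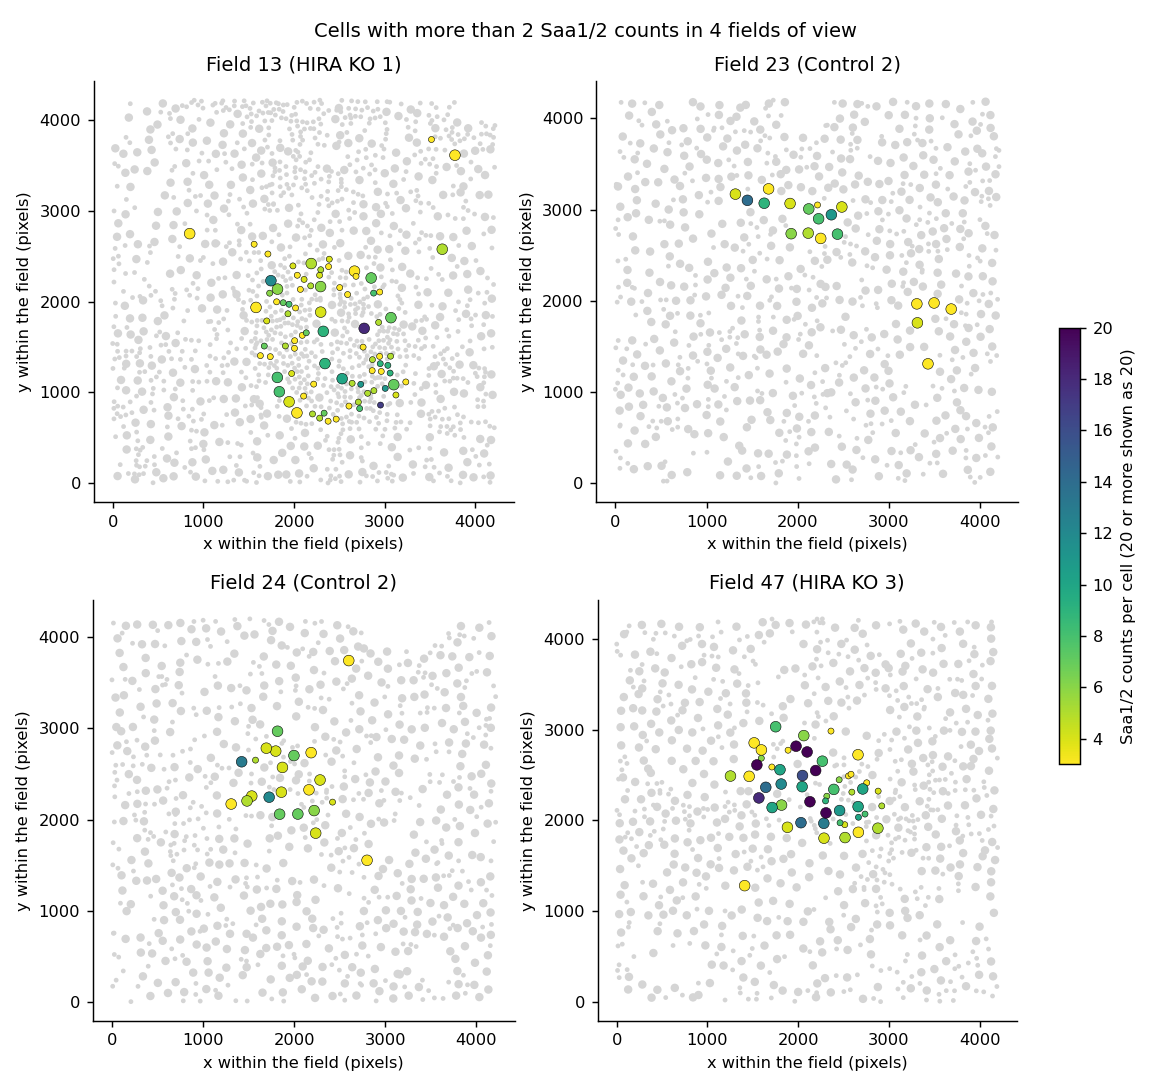
Positions of kept cells in fields of view 13, 23, 24 and 47 (x and y in pixels within the field of view), with cells above 2 Saa1/2 counts marked by size class. The marked cells gathered in compact patches. In field of view 13, 61 of them were smaller cells and 21 hepatocyte-sized.

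Cells under 15000 square pixels took part as well. Over all kept cells 273 had more than 2 Saa1/2 counts, of which 94 (34.4%) were smaller cells, 61 in field of view 13 and 17 in field of view 47. The 4 fields of view held 8.33% of kept cells and 10.03% of all counts, but 26.9% of all Saa1/2 counts and 174 (63.7%) of the 273 high cells. A set of marker gates (at least 5 counts and 5% of a cell's counts from the markers of biliary, Kupffer, endothelial, stromal, T/NK or S100a8 and S100a9 calprotectin-bearing cells) took in 1 of the 273, a T/NK-marker cell. Of all 49665 kept cells, 47985 passed none of these gates. In the 4 fields of view the 81 smaller high cells had summed hepatocyte markers of 64189 CPM against 57831 in the 2346 other smaller cells, and summed Kupffer markers of 2588 against 9094 CPM, while summed T and NK markers stood at 12217 against 6834 CPM. Their median CD45 stain, a leukocyte surface protein, was 3078 intensity units against 1264, and in hepatocyte-sized cells it was 960 against 730. These sums and medians pool fields of view that differed. Ttr in hepatocyte-sized cells that were not high was at 30210 CPM in field of view 13 and at 65719 in 47. In smaller cells the stain was 4046 in high against 2840 in other cells of field of view 13, and 1099 against 1264 in 47. In hepatocyte-sized cells it was 1817 against 902 in 13, and 943 against 922 in 47. The part of adjoining immune cells in the result was not tested.

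Around Saa1/2-high hepatocyte-sized cells of the 4 fields of view, the level fell with distance. Other hepatocyte-sized cells stood at 2618 Saa1/2 CPM within 200 pixels of the nearest high cell, at 1320 between 200 and 400 and at 875 between 400 and 800, and at 744 and 796 CPM beyond 800 and 1600 pixels. Smaller cells, here with the 81 high ones among them, went from 10244 and 7611 CPM in the first 400 pixels to 1101 and then 449 and 563 CPM. Those 81 cells held 399 Saa1/2, 38 Lcn2 and 93 Fgg counts. All smaller cells within 200 pixels held 325, 50 and 108, and those from 200 to 400 pixels 324, 57 and 149. The smaller-cell profiles thus include the clusters' own cells. Since hepatocyte-sized and smaller cells alike were ordered around cells chosen for Saa1/2, the Saa1/2 profile is a description. Lcn2 in hepatocyte-sized cells was 1285, 1085, 744, 892 and 899 CPM over the same distances, and in smaller cells 1576, 1339, 898, 667 and 704 CPM. Fgg in smaller cells was 3404 and 3500 CPM in the first 400 pixels and between 2152 and 2253 beyond, while in hepatocyte-sized cells it moved between 3627 and 4775 CPM. Crp in smaller cells stayed between 845 and 982 CPM, and in hepatocyte-sized cells it was lowest, at 619 CPM (13 counts), nearest to the high cells and 1284 to 1347 elsewhere. The CD45 stain of smaller cells had medians of 3244 and 3795 in the first 400 pixels and 938 to 1007 beyond. These medians pool the 4 fields of view, and smaller cells that were not high stained at 2840 in 13 and at 1264 in 47. The part of this stain in these profiles was not tested.

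**Figure D3:**
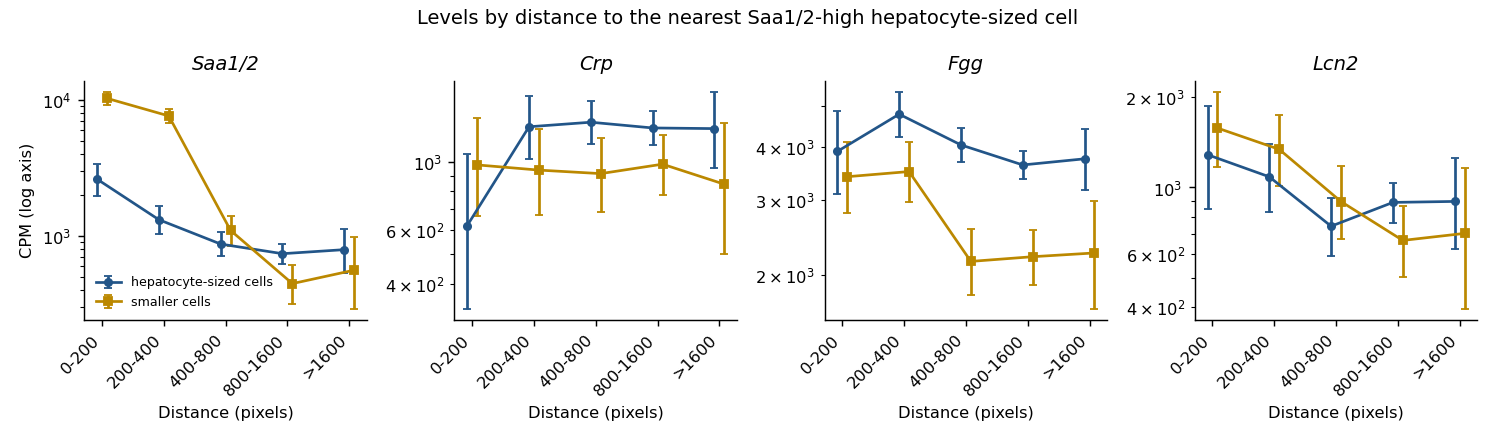
Level of the 4 targets (CPM, log axis) in hepatocyte-sized and smaller cells of fields of view 13, 23, 24 and 47, by distance in pixels to the nearest Saa1/2-high hepatocyte-sized cell. Hepatocyte-sized cells are those that were not high, while smaller cells include those above 2 Saa1/2 counts. Saa1/2 in smaller cells fell from 10244 to 449 CPM between the first and the 4th distance class, Lcn2 from 1576 to 667, and Crp stayed between 845 and 982 CPM.

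Saa1/2-high cells were then compared with the other hepatocyte-sized cells of the same fields of view over the 3 areas with enough of them (Control 2, 38 high cells, HIRA KO 1, 21, and HIRA KO 3, 47), with counts summed per area. By construction Saa1/2 went from 971 to 16063 CPM in Control 2, from 1284 to 21164 in HIRA KO 1 and from 830 to 24829 CPM in HIRA KO 3. Of 997 other targets tested, 5 (0.502%) passed an adjusted p of 0.05 in edgeR's quasi-likelihood test, all of them higher in the high cells, and 60 had an unadjusted p under that value.

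Lcn2 stood at 999 CPM in Saa1/2-high and 971 in other cells in Control 2, at 1663 and 851 in HIRA KO 1, and at 2101 and 904 in HIRA KO 3. It was higher in 3 of 3 areas, by little in Control 2, with a log2 difference of 0.90 ± 0.26 (SE), an unadjusted edgeR p of 0.0011 and an adjusted p of 0.13. Lcn2 therefore did not pass the test. Without Control 2 the log2 difference was 1.25 (adjusted p = 0.044), without HIRA KO 1 0.89 (adjusted p = 0.14) and without HIRA KO 3 0.47, so that HIRA KO 3 carried much of it. Fgg went from 3836 to 3843, from 4351 to 7559 and from 4439 to 5817 CPM in the same order (log2 difference 0.47 ± 0.23, adjusted p = 0.80), and Crp from 1406 to 1921, from 959 to 1663 and from 1369 to 1508 CPM (0.48 ± 0.25, adjusted p = 0.80). All 3 were higher in each area, and none passed the test. The difference between genotypes in this step, over 1 control and 2 HIRA KO areas, was 1.16 on the log2 scale for Lcn2 (adjusted p = 0.998 in edgeR).

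The 5 targets that rose were Cxcl9, an interferon-induced chemokine, the metallothioneins Mt1 and Mt2, which bind zinc and are positive acute-phase genes, Igha, an immunoglobulin chain of plasma cells, and Ccl5, a T-cell chemokine. Cxcl9 went from 430 to 2383 CPM in Control 2, from 1810 to 8314 in HIRA KO 1 and from 478 to 2639 in HIRA KO 3 (log2 difference 2.45, adjusted p = 4.4e-11). Mt1 went from 2887 to 4996, from 3499 to 22676 and from 1186 to 2908 CPM (1.69, adjusted p = 4.7e-05), and Mt2 from 1047 to 1614, from 1878 to 9373 and from 760 to 1239 CPM (1.38, adjusted p = 0.0011). These 3 were higher in every area. Ccl5 was at 1383 against 1437 CPM in Control 2 and higher in both HIRA KO areas (1.04, adjusted p = 0.046). Igha rose by 1.73 (adjusted p = 0.00051) but rested on HIRA KO 3, without which the log2 difference was 0.20 (adjusted p = 0.999). Without HIRA KO 1, Mt2 was at 0.75 and Ccl5 at 0.68 (adjusted p = 0.35 for each in edgeR), whereas Mt1 remained past the threshold at 1.12 (adjusted p = 0.0010). Without HIRA KO 3, Ccl5 was at 0.97 (adjusted p = 0.28).

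**Figure D4:**
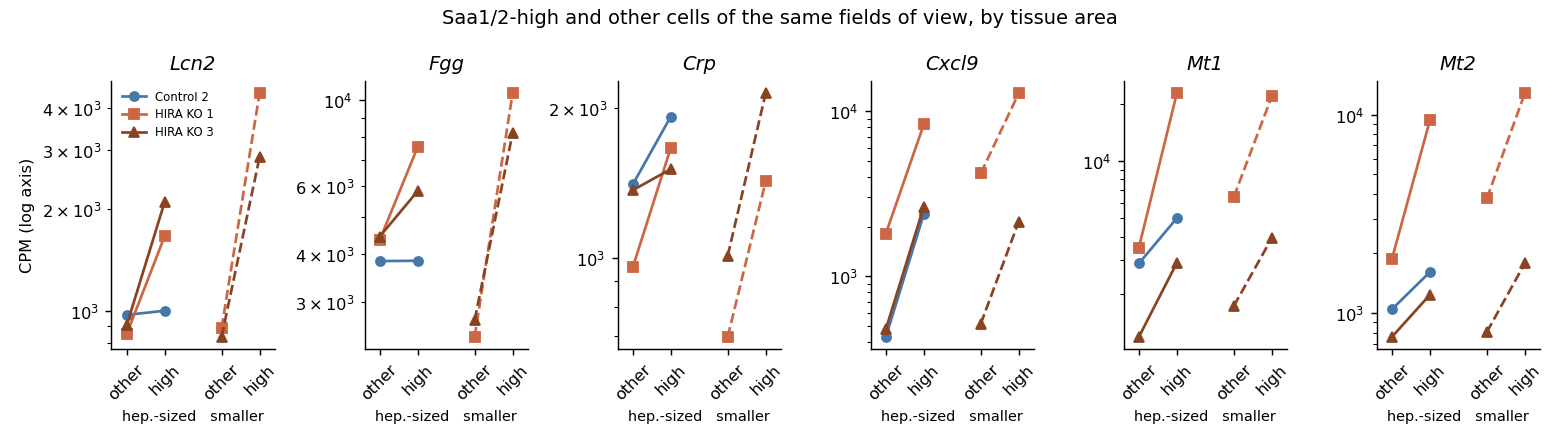
Level (CPM, log axis) of Lcn2, Fgg, Crp, Cxcl9, Mt1 and Mt2 in Saa1/2-high and other cells of the same fields of view. Solid lines are hepatocyte-sized cells of the 3 areas that entered the test (Control 2, HIRA KO 1, HIRA KO 3). Dashed lines are smaller cells. In hepatocyte-sized cells, Cxcl9, Mt1 and Mt2 were higher in the high cells of all 3 areas. Lcn2 was clearly higher in the HIRA KO areas (1663 against 851 and 2101 against 904 CPM) and not in Control 2 (999 against 971).

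The rest of the pathway was read from lists of panel genes. Of 10 cytokines that induce the acute phase, among them Il6, Il1b and Tnf, 0 passed the test in Saa1/2-high cells (median log2 difference 0.25, against -0.01 for all targets). In hepatocyte-sized cells Il6, at 416 to 592 CPM per area, and Tnf, at 342 to 509, lay below the highest negative probe (633 CPM). Il1b, at 577 to 697 CPM, lay around it. Of 13 of their receptors, 0 passed (median 0.04), as did 0 of 7 signal transducers and transcription factors, including Stat3 and Nfkb1 (median -0.03), and 0 of 3 feedback inhibitors (0.05). Over all targets 0.502% passed, so these counts of 0 do not set the lists apart. Among 5 other positive acute-phase proteins Mt1 and Mt2 were the 2 that passed, and among 7 negative ones none did (median -0.10). Of 11 interferon-response genes only Cxcl9 passed (median 0.31), with Cxcl10 at a log2 difference of 1.02 and an adjusted p of 0.12. Thus the metallothioneins and Cxcl9 were the members of these lists that passed in hepatocyte-sized cells.

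The smaller cells, examined after the data had been seen and possible in HIRA KO 1 and HIRA KO 3 only, gave larger differences. Lcn2 was at 4418 CPM in high against 887 in other smaller cells of HIRA KO 1 and at 2854 against 836 CPM in HIRA KO 3, a log2 difference of 2.23 ± 0.34 (edgeR adjusted p = 8.3e-05). Fgg was at 10405 against 2445 and at 8205 against 2703 CPM (1.94 ± 0.31, adjusted p = 8.3e-05). Crp was at 1425 against 696 and at 2141 against 1011 CPM and did not pass (1.11 ± 0.44, adjusted p = 0.38). Lcn2 and Fgg were thus higher beside Saa1/2 in these cells of both areas. With so few areas, the p-values lean on the spread shared over targets. Of 986 targets, 5 (0.507%) passed as higher: Lcn2, Fgg, Mt1, Mt2 and Cxcl9. Another 7 were lower, among them the immunoglobulin chains Igkc, Ighm, Jchain and Igha. With the area as a block, 8 of 10 hepatocyte markers were higher in the high cells (median log2 difference 0.60, all targets -0.04). All 7 negative acute-phase genes were higher as well (median 0.64). None of either list passed. The other smaller cells hold immune and other cell types, so a mix of cells and a level per cell cannot be told apart here. Over all kept cells the log2 difference was 1.26 for Lcn2 (adjusted p = 9.4e-05), 0.95 for Fgg (adjusted p = 0.013) and 0.64 for Crp (adjusted p = 0.39).

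The position of transcripts inside cells differed among the 4 targets. The platform assigns each transcript to the nucleus, cytoplasm or membrane, and the median target had 42.3 to 51.7% of its transcripts in the nucleus, depending on the area. The negative probes had 23.6 to 28.8%, so a low nuclear share was also that of the background. Crp had a median of 56.5% over the 6 areas and lay above the median target in 6 of 6, Fgg had 36.03% and lay below it in 6 of 6, and Lcn2 had 47.4%. Saa1/2 had 59.4% but ranged from 36.6 to 67.0%. That range followed the clusters. In hepatocyte-sized cells with 1 or 2 Saa1/2 counts 64.8% of 3596 transcripts were nuclear, with 58.2 to 71.0% in the 6 areas. In cells with more than 2 counts 26.7% of 1047 were nuclear: 28.3% in Control 2, 28.1% in HIRA KO 1 and 16.5% in HIRA KO 3. In the areas with few such cells it was 71.4% in Control 3 (28 transcripts) and 57.5% in HIRA KO 2 (73 transcripts). Smaller cells above 2 counts gave 28.6% of 455 transcripts. Between the same classes of hepatocyte-sized cells the other targets moved less. The share went from 58.7 to 52.6% for Crp, from 39.6 to 33.4% for Fgg and from 52.0 to 35.96% for Lcn2 (89 transcripts). In cells without Saa1/2 it was 57.5% for Crp, 36.2% for Fgg and 46.6% for Lcn2. Cells were split by their Saa1/2 count, so these shares are a description. The nuclear share of Fgg was 40.3, 39.2 and 37.1% in Control 1 to 3 and 30.9, 34.99 and 28.5% in HIRA KO 1 to 3, without overlap (exact permutation test, two-sided, p = 0.1). For 87 of 998 targets (8.72%) the HIRA KO areas were likewise all below the control areas, and the median target gave 43.6 to 51.7% in control and 42.3 to 47.9% in HIRA KO areas.

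**Figure D5:**
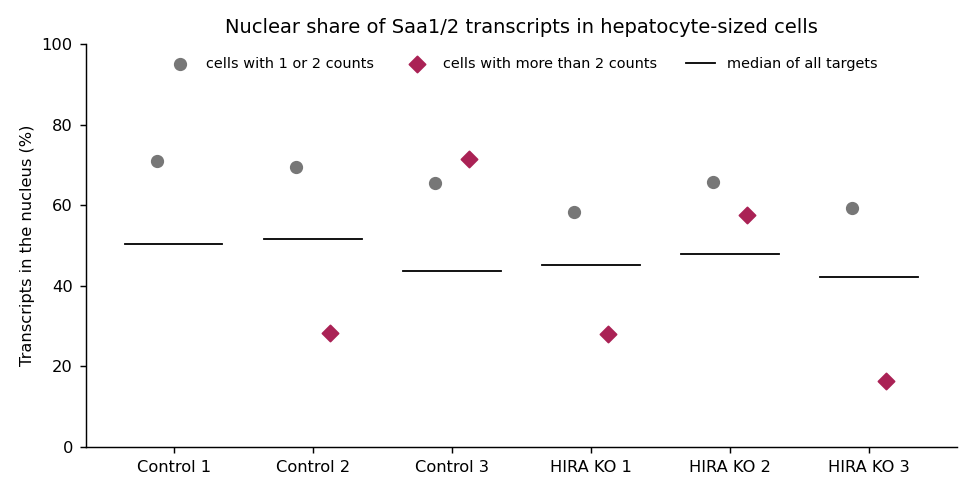
Share of Saa1/2 transcripts assigned to the nucleus (percent) in hepatocyte-sized cells, by tissue area and by the number of Saa1/2 counts in the cell. The line is the median over all targets. This line and the area values in the text cover all decoded transcripts, including those outside cells. With the areas pooled, Saa1/2 went from 64.8% in cells with 1 or 2 counts to 26.7% in cells with more.

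Levels of the 4 targets also differed among marker-gated classes, which take in cells of any size. Saa1/2 stood at 1081 CPM in hepatocyte-sized cells without a marker gate, at 981 in smaller cells without one and at 441 in Kupffer-marker cells, where the mean negative probe was at 477, 340 and 282 CPM. Fgg followed the same order with 3636, 1977 and 1046 CPM, and Crp with 1260, 884 and 377 CPM. Kupffer-marker cells also held Ttr at 13239 CPM, and Fgg was at 7.90 per 100 Ttr counts there against 8.95 in hepatocyte-sized cells. The part of transcripts from adjoining hepatocytes was not tested. In biliary-marker cells Crp was at 1452 CPM (664 to 2757, 9 counts), and with the looser gate at 1642 CPM (1310 to 2034, 84 counts, 440 cells) against 1283 in hepatocyte-sized cells, higher in 4 of 6 areas. Lcn2 stood at 859, 805 and 654 CPM, but at 2818 CPM (95% Poisson interval 1857 to 4100) in 84 cells with the calprotectin markers S100a8 and S100a9, which neutrophils carry. That value rests on 27 counts, of which 0, 0 and 4 came from Control 1 to 3 and 6, 12 and 5 from HIRA KO 1 to 3. Among the marker-gated classes with at least 5 Lcn2 counts this was the highest Lcn2 level, with 522 CPM of Saa1/2 there, while the smaller Saa1/2-high cells of the 4 fields of view were at 3934 CPM (2784 to 5400, 38 counts). With the looser gate Lcn2 was at 2495 CPM in calprotectin cells. In biliary-marker cells it was then at 1310 CPM (1015 to 1664, 67 counts) against 867 in hepatocyte-sized cells, higher in 5 of 6 areas. Saa1/2 was at 1380 CPM (1148 to 1645, 124 counts) in T/NK-marker cells of that gate against 1102, higher in 3 of 6 areas. None of the 273 cells with more than 2 Saa1/2 counts was a calprotectin cell. Only 84 of all 49665 kept cells were, so this count does not set the 273 apart.

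Position along the lobule gave smaller differences. Cells high in Glul, the glutamine synthetase of hepatocytes around the central vein, served as a landmark, and hepatocyte-sized cells near and far from them were compared over 6 areas. Of 997 targets, 7 (0.702%) passed. Fgg was lower near Glul-high cells in 5 of 6 areas (log2 difference -0.15 ± 0.07, edgeR adjusted p = 0.60). Saa1/2 was at 2038 near against 761 CPM far in Control 2, while in the other 5 areas the values stood between 807 and 1329 far and between 843 and 1172 near. Its log2 difference was 0.22 ± 0.10 (adjusted p = 0.60), and -0.04 without Control 2, so it rested on that area. With a looser landmark it was 0.26 (adjusted p = 0.030). Crp (-0.03) and Lcn2 (-0.02) did not pass either.

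Biliary-marker cells, a landmark of the portal side, were frequent enough in 2 areas, with 1 field of view in each. There 0% of 884 targets passed in edgeR (32 at an unadjusted p under 0.05), and Fgg had a log2 difference of 0.50 (adjusted p = 0.96). With a looser gate 6 areas could be used, and 8 of 993 targets (0.806%) passed. Fgg was then higher near biliary-marker cells in 6 of 6 areas, for example 4228 against 3248 CPM in Control 3 and 4352 against 3738 in HIRA KO 3, by 0.22 ± 0.08 on the log2 scale (unadjusted p = 0.0053 and adjusted p = 0.23 in edgeR), and did not pass. Saa1/2 was at -0.04 ± 0.09 (adjusted p = 0.97). It was higher near in 5 of 6 areas, from 847 against 830 CPM in HIRA KO 2 to 1234 against 646 in Control 2, and lower in HIRA KO 3, at 1216 against 1981 CPM, without which the log2 difference was 0.18 (adjusted p = 0.71). Its difference between genotypes was -0.69 (unadjusted p = 0.0047 and adjusted p = 0.47 in edgeR). Around calprotectin cells 3 areas entered, each with 1 field of view, and 0.105% of 948 targets passed (Igha). Saa1/2 was at 0.40 ± 0.24 (edgeR adjusted p = 0.99) and Lcn2 at 0.10, and without HIRA KO 3 the Saa1/2 value was -0.03. None of the 4 targets passed in these 3 comparisons, apart from Saa1/2 under the looser Glul landmark.

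Finally, control and HIRA KO areas were compared. In Control 1 to 3 Fgg was at 2452, 3171 and 3406 CPM in hepatocyte-sized cells and in HIRA KO 1 to 3 at 4675, 3754 and 3954 CPM. The groups did not overlap, which was the case, with HIRA KO higher, for 30 of 998 targets (3.01%). The means were 3010 ± 497 and 4128 ± 485 CPM (SD, n = 3), a ratio of 1.37 (exact permutation test, two-sided, p = 0.1), and per 1000 square pixels the ratio was 2.05 (p = 0.1, exact test). In edgeR the log2 difference was 0.57 ± 0.20 with an unadjusted p of 0.012 and an adjusted p of 0.43, where 0.1% of 998 targets passed (Igha, and 87 at an unadjusted p under 0.05). Fgg passed in 2 other fits, with the slide row as a block (adjusted p = 0.019) and in limma-voom on the fields of view (adjusted p = 0.049). In these fits 44 and 29 targets passed in all. The limma-voom fit took fields of view as units, with a correlation within areas, so it does not keep the area as the replicate. Fgg did not pass in DESeq2 (adjusted p = 0.13) or when any area was left out. Higher Fgg in HIRA KO areas was therefore a direction seen in every area, not a call of the main test.

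Fgg did not stand alone among secreted hepatocyte proteins. All 7 negative acute-phase genes tested were also higher in HIRA KO areas, with a median log2 difference of 0.35 (all targets, -0.00), none of them passing: Ttr, 1.31 ± 0.46, Gc, 0.97 ± 0.26, and the selenium carrier Selenop, 0.95 ± 0.30, led the list. Counted against Ttr, Fgg was at 12.6, 13.8 and 13.1 per 100 Ttr counts in Control 1 to 3 and at 13.9, 6.48 and 6.25 in HIRA KO 1 to 3. Against Apoa1, the main apolipoprotein of high-density lipoprotein, it was at 74.4, 77.5 and 71.1 in control and at 86.0, 89.3 and 103 per 100 counts in HIRA KO areas. The direction of Fgg thus turned with the hepatocyte gene used as the base.

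The other 3 targets overlapped between the groups. Saa1/2 was at 919, 1184 and 951 CPM in Control 1 to 3 and at 1207, 849 and 1289 in HIRA KO 1 to 3, with means of 1018 ± 144 and 1115 ± 234 (exact p = 0.6). Crp was at 1063, 1249 and 1526 against 1108, 1231 and 1361 CPM (exact p = 0.9), and Lcn2 at 712, 938 and 916 against 878, 831 and 867 CPM (exact p = 1). In edgeR the log2 differences were 0.26 ± 0.16 for Saa1/2 (adjusted p = 0.66), 0.08 ± 0.15 for Crp (adjusted p = 0.90) and 0.13 ± 0.12 for Lcn2 (adjusted p = 0.80). When each area was represented by its median field of view, Saa1/2 was at -0.04, in a setting where the median of all targets moved to -0.11. Per 1000 square pixels the ratios of HIRA KO to control were 1.61, 1.47 and 1.496 for Saa1/2, Crp and Lcn2 (exact p = 0.2 for each), and 1.55 for the negative probes (exact p = 0.1), so that the 3 ratios lay around that of the background. In all kept cells, where 2 of 998 targets (0.2%) passed, Saa1/2 was at 0.34 (adjusted p = 0.67), Crp at 0.04 (0.95), Fgg at 0.51 (0.59) and Lcn2 at 0.14 (0.85 in edgeR).

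The share of Saa1/2-high cells did not separate the genotypes either. It was 0.124, 1.41 and 0.290% in Control 1 to 3 and 1.13, 0.552 and 1.83% in HIRA KO 1 to 3 (exact permutation test, two-sided, p = 0.4). After every cell was thinned to 100 counts, which left out shallower cells, the share was 0.0352, 0.359 and 0.0440% in control and 0.453, 0.0269 and 0.689% in HIRA KO areas (exact p = 0.4). With or without thinning, Control 2, HIRA KO 1 and HIRA KO 3 held the 3 highest shares, so the clusters occurred in 1 of 3 control and 2 of 3 HIRA KO areas. Among the regulators, between genotypes, 0 of 10 cytokines, 0 of 13 receptors, 0 of 7 transducers and 0 of 3 feedback inhibitors passed, where 0.1% of all targets did, so the counts do not set them apart. The lowest p values belonged to Il1r1, the interleukin-1 receptor (log2 difference -0.36, adjusted p = 0.28), and Nfkbia, the NF-kB inhibitor (0.35, adjusted p = 0.43 in edgeR).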

How the data were processed

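CosMx counts for 1000 gene targets and 10 negative probes were analysed in 50 fields of view (25 control, 25 HIRA KO). Per segmented cell and target, the authors deposited the raw count of decoded transcripts, with decoding and segmentation done by the platform and no normalization. Per the file headers, a further table holds mean stain intensity (CD45 and B2M), cell area in pixels and cell position, and another lists each transcript with its compartment. Pixel size, background subtraction and the versions of the decoding and segmentation software are not given in the sources used here. Cells with fewer than 20 counts (2215) or an area above 5 times the geometric mean (252) were excluded, following the filter of the study. Outlines and positions of fields of view were not used.

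Counts were summed per tissue area, the replicate. The labels name no mouse, so p-values measure the spread between areas, which edgeR moderates by that of the other targets. In limma-voom the fields of view were the units, with a correlation within each area. Groups were compared with edgeR 4.0.16 (TMM, quasi-likelihood test, Benjamini-Hochberg over all targets) in R 4.3.3, with DESeq2 1.42.0 and limma 3.58.1 as alternatives, and by exact permutation of areas for single values. Near and far cells and Saa1/2-high and other cells were compared with the area as a block. In the Saa1/2-high comparison Saa1/2 itself was left out of the fit. On simulated counts the genotype fit recovered 100% of large and 93% of small changes (998 targets), and the Saa1/2-high fit 79% and 24% (995 targets). The simulation gave every target a fixed dispersion and a mean shared by all areas, so these shares do not give the power on the real counts. In the real genotype fit Gc, at a log2 difference of 0.97 ± 0.26, did not pass (edgeR adjusted p = 0.27). Named genes were the 4 targets, list members past the threshold or with the lowest p, the 5 largest calls, and the 3 targets most like each. The targets and lists were chosen with earlier results of these data known. Promoters came from RefSeq (GRCm38.p6), gene positions from GENCODE vM21. All 5 genes matched. Protein sequences were not used here.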

Additional observations from a re-analysis of the deposited data

Results flagged for a closer look

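In 24 groups of fields of view (4 targets in 6 areas), the highest or lowest field of view was compared with its nearest neighbour by Dixon's criterion, which chance passes in about 1 in 20 groups. Saa1/2 in hepatocyte-sized cells stood apart in field of view 13 of HIRA KO 1, at 2915 CPM against 1109 for the next, and in field of view 47 of HIRA KO 3, at 3515 CPM against 1179. Crp stood apart in field of view 1 of Control 1, at 1317 CPM against 1113. No cause was tested for any of the 3.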

How the results depend on the processing

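The alternatives for smaller and all kept cells were chosen after seeing the data. Calls between genotypes in all cells numbered 2, and 1 with library size only, 10 in DESeq2, 17 with the slide row as a block and 11 in limma-voom on fields of view. In hepatocyte-sized cells they numbered 1, and 19, 44 and 29 in the last 3 of these, 2 with the median over fields of view and 2 with cells of at least 10000 square pixels. Library size only moved the median log2 difference of all targets to -0.12 (all cells) and -0.13 (hepatocyte-sized cells), and Crp to -0.074 and -0.049. Over the median field of view Saa1/2 was at -0.095 and -0.037 and Crp at -0.095 and -0.017, where the medians of all targets were -0.12 and -0.11. Around Glul-high cells the 7 calls became 0 in DESeq2, 3 with tertiles within each area and 4 with the looser gate, where Crp was at 0.094 (tertiles) and 0.017 (looser) and Lcn2 at 0.029 (tertiles). Around biliary-marker cells the 0 calls became 3 with library size only, 1 with tertiles, 8 with the looser gate and 4 with cells of at least 10000 square pixels. There Saa1/2 was at -0.0094 (library size), -0.22 (tertiles) and -0.035 (looser), Crp at -0.035 (library size) and -0.097 (tertiles) and Fgg at -0.095 (tertiles). Around calprotectin cells the 1 call became 0 in DESeq2, 0 with tertiles, 2 with the looser gate and 0 with cells of at least 10000 square pixels, with Crp at -0.11 (tertiles), -0.12 (looser) and -0.033 (at least 10000) and Fgg at 0.031 (looser). The 5 calls in Saa1/2-high cells became 2 in DESeq2, 1 with the top 0.5%, 12 in smaller cells, where Igha was at -3.10, and 11 in all kept cells. The highest over the median field of view for Saa1/2, 3.72, was 5.52 per 1000 square pixels and 4.61 in all kept cells. The causes were not tested.

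Leaving out 1 area at a time gave 1 to 3 calls between genotypes in all cells (Crp from -0.068 to 0.17) and 0 to 4 in hepatocyte-sized cells (Crp from -0.047 to 0.25), the count being 0 without Control 2. It gave 0 to 9 calls around Glul-high cells, 0 without Control 1, with Saa1/2 from -0.043 to 0.32, Crp from -0.073 to 0.00018 and Lcn2 from -0.068 to 0.026. Around calprotectin cells it gave 0 to 1 calls, with Saa1/2 from -0.032 to 0.68 and Lcn2 from -0.14 to 0.45, and 4 to 6 calls in Saa1/2-high cells. Around biliary-marker cells with the main gate no area could be left out, since 2 entered. Pairing of areas came from the slide row, which holds 1 area of each group, and its values are given above. The numbers of the fields of view, which the groups do not share, gave none. At 131 to 258 counts per median hepatocyte-sized cell, 85.2% of these cells held no Lcn2 count and 80.2% no Crp count, which limits statements about single cells.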
